A study of Rattus norvegicus with 6 samples.

Results

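The 9 genes described here encode amino acid transporters of the plasma membrane that cells are known to switch on under amino acid shortage and other stress. They were chosen with earlier results of these data known, and taken by gene symbol from the 32883 genes of the deposited table. All 9 were found, 1 row each. They were measured by RNA sequencing of the vestibular sensory epithelium, the inner ear tissue that holds the hair cells (HCs), in 6 Long-Evans rats. The 3 Control rats, 2 males and 1 female, received phosphate-buffered saline (PBS). The 3 STREP rats, also 2 males and 1 female, received streptomycin in PBS, an aminoglycoside antibiotic that damages HCs, by subcutaneous injection once a day at 500 mg/kg (as free base) for 6 weeks. All injections started at postnatal day 21, and the tissue was taken on the last day of treatment. The utricles and cristae of each animal were pooled into 1 library, so HCs, supporting cells, nerve endings and the tissue around them were read together. Library totals were 48568191 to 59906048 counts in Control and 29333584 to 33744909 in STREP rats, so depth separated the groups. The labels did not name a batch for any library.

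When amino acids run short or proteins misfold, kinases of the integrated stress response slow translation and at the same time favour the translation of ATF4, a transcription factor. ATF4 binds DNA together with C/EBP family partners and raises genes that import amino acids, make them and load them on transfer RNAs. The transporters fall into several roles. Slc7a5 and Slc7a11 encode light chains that carry amino acids only when joined to a shared heavy chain, encoded by Slc3a2. Slc7a1 and Slc7a3 encode carriers of arginine, lysine and other cationic amino acids. Slc1a4, Slc1a5, Slc38a2 and Slc6a9 encode sodium-dependent carriers of small neutral amino acids, among them serine, alanine, glutamine and glycine.

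The element that ATF4 and C/EBP proteins are known to bind together has the core TGATGNAA. It was searched on both strands of the 250 bases before the annotated start of each gene, in the RefSeq table of the rat build GRCr8. The table held 7 of the 9 transporters, with a pair of windows for Slc3a2. These 7 genes had 8 windows, and the core was found for 2 of the genes, Slc7a1 and Slc1a4. Of all 33469 windows of this length, 3.40% held it. Sites outside these windows, or with letters other than this core, were not searched for. The windows of Slc7a1 and Slc1a4 are printed from 5′ to 3′ in the direction of the gene, with the core in capitals. The window of Slc7a5, the transporter with the largest change, is shown beside them because the core was not among its letters. The Slc7a1 window is chr12:11664238-11664487 on the plus strand, with the core from base -30 to base -23 counted back from the start. The Slc1a4 window is chr14:98761563-98761812 on the minus strand, with the core on the opposite strand from base -235 to base -228. The Slc7a5 window is chr19:66872413-66872662 on the minus strand.
Slc7a1: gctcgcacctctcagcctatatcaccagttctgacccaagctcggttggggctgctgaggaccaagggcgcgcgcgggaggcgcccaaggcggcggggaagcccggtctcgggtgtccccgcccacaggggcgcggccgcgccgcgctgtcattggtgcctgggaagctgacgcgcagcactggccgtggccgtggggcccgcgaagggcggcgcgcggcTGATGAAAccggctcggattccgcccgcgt
Slc1a4: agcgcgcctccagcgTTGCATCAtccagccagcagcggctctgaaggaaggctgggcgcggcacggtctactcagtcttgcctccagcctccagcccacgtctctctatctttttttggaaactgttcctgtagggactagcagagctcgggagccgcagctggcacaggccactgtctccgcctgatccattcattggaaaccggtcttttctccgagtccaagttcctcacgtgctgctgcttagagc
Slc7a5: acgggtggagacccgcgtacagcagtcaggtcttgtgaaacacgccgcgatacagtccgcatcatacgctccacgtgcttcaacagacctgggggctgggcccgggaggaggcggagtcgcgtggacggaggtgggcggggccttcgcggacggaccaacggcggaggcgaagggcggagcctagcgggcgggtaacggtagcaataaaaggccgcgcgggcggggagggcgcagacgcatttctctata

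Levels are given as normalised counts, which are counts divided by a size factor that evens out library depth, in the order Control 1, 2, 3 and STREP 1, 2, 3, with the female last in each group. A gene was called when its DESeq2 adjusted p-value, taken over all genes, was under 0.05 and its fold change exceeded 1.5 (0.58 on the log2 scale). Of the 9 transporters, 2 were called higher, Slc7a5 and Slc1a4, where 1.87% of 16250 tested genes were called higher. None was called lower, where 1.37% of tested genes were. Slc7a1 and Slc38a2 passed the adjusted p-value but stayed just inside the fold change threshold, so 4 of the 9 were higher by the adjusted p-value alone, against 2.10% of tested genes. In 6 of the 9, every STREP value lay above every Control value, a pattern found in 9.12% of tested genes. Because the 9 were chosen with earlier results of these data known, these shares describe them and are no independent support. The median log2 fold change was 0.55 over the 9 transporters and 0.0069 over all tested genes. In bulk tissue a change in the number of cells that express a gene cannot be told apart from a change in the amount of its RNA per cell.

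**Figure D1:**
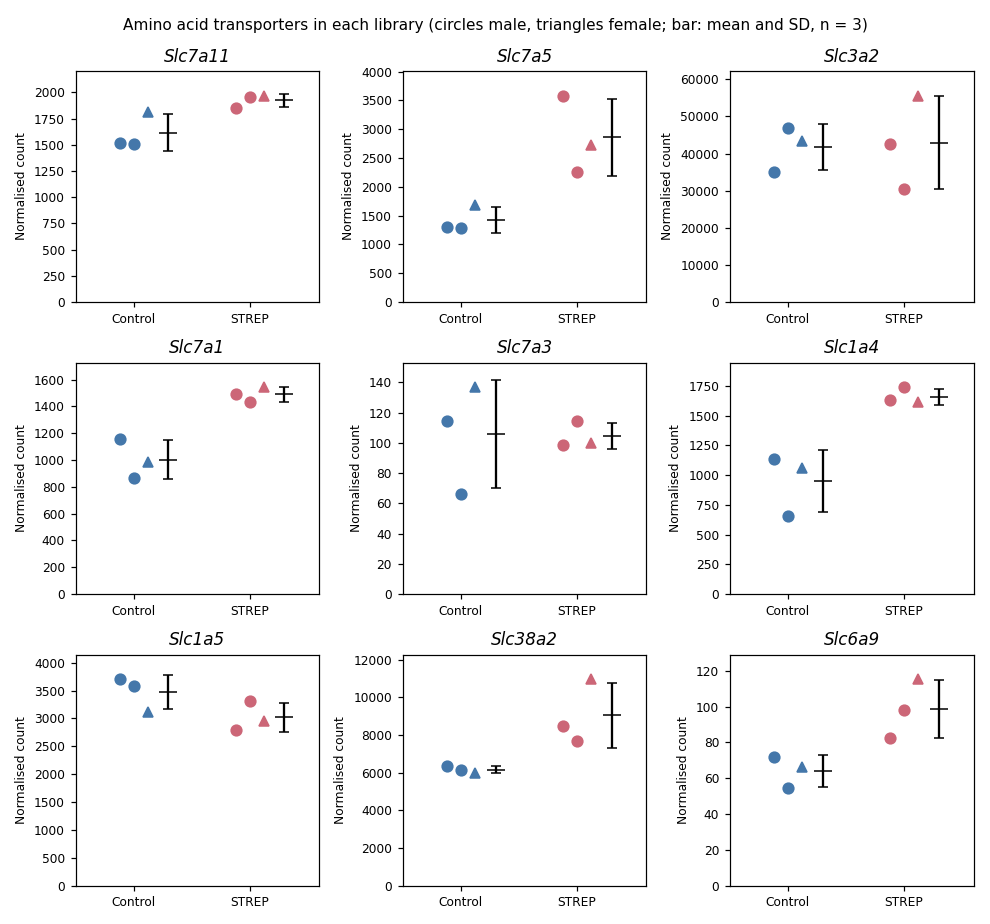
Normalised count of each transporter (vertical axes, each from 0) in the 3 Control and 3 STREP libraries, with males as circles, females as triangles and bars for the mean and SD. The STREP points lie above all Control points for Slc7a11, Slc7a5, Slc7a1, Slc1a4, Slc38a2 and Slc6a9, and the groups overlap for Slc3a2, Slc7a3 and Slc1a5.

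Slc7a5 (ENSRNOG00000018824) encodes LAT1, the exchanger that brings in leucine and other large neutral amino acids. It had 1303, 1289 and 1691 normalised counts in Control and 3585, 2259.8 and 2730.0 in STREP rats. The lowest STREP value was above the highest Control value, and the STREP values were also the more spread. Means were 1428 ± 228 and 2858 ± 672 (SD, n = 3), and DESeq2 gave a log2 fold change of 1.00 ± 0.20 (SE) with an adjusted p of 8.57e-05. A quasi-likelihood test in edgeR on genes past a count filter, which called 0.924% of its tested genes higher, also called Slc7a5 (adjusted p = 0.0221), and it called none of the other 8 transporters. With each library left out in turn, Slc7a5 was called in 6 of 6 fits, with log2 fold changes from 0.81 to 1.14.

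Slc3a2 (ENSRNOG00000018487), the heavy chain that LAT1 needs to reach the membrane, had 34975, 47005 and 43375 normalised counts in Control and 42545, 30536 and 55630 in STREP rats. STREP replicates 2 and 3 held the lowest and the highest of all 6 values, so the STREP range covered the Control range. It differed by 0.04 ± 0.21 on the log2 scale (DESeq2 adjusted p = 0.985), with a 95% interval from -0.37 to 0.45, which does not reach the 1.5-fold threshold on either side. Its sign was negative when STREP replicate 3 (-0.19) or Control replicate 1 (-0.080) was left out.

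Slc7a11 (ENSRNOG00000010210) encodes xCT, which joins the same heavy chain and takes up cystine, the source of cysteine for glutathione, in exchange for glutamate. It had 1515, 1507 and 1817 normalised counts in Control and 1853, 1954 and 1970.1 in STREP rats. The groups did not overlap, but the lowest STREP value stood only just above the Control female. The log2 fold change was 0.26 ± 0.15 (DESeq2 adjusted p = 0.518), which did not pass the test, and its 95% interval ran from -0.035 to 0.55, short of the 1.5-fold threshold.

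Ratios of transporters within a library do not depend on scaling between libraries. The log2 ratio of Slc7a5 to Slc3a2 counts was -4.75, -5.19 and -4.68 in Control and -3.57, -3.76 and -4.35 in STREP rats, a difference of 0.98 between means of -4.87 ± 0.28 and -3.89 ± 0.41 (SD, n = 3). Slc7a5 RNA was therefore higher relative to Slc3a2 RNA in 3 of 3 STREP rats than in any Control rat. The proteins of these genes were not measured. The log2 ratio of Slc7a11 to Slc7a5 was 0.22, 0.23 and 0.10 in Control and -0.95, -0.21 and -0.47 in STREP rats, a difference of -0.73, again without overlap. The ratio of Slc7a11 to Slc3a2 overlapped between groups (difference 0.25, exact two-sided permutation p = 0.4). For both ratios without overlap the exact two-sided permutation p was 0.1, the smallest that 3 animals against 3 allow, and 0.167 after adjustment over the 5 ratios compared, so this design could not pass a threshold of 0.05.

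**Figure D2:**
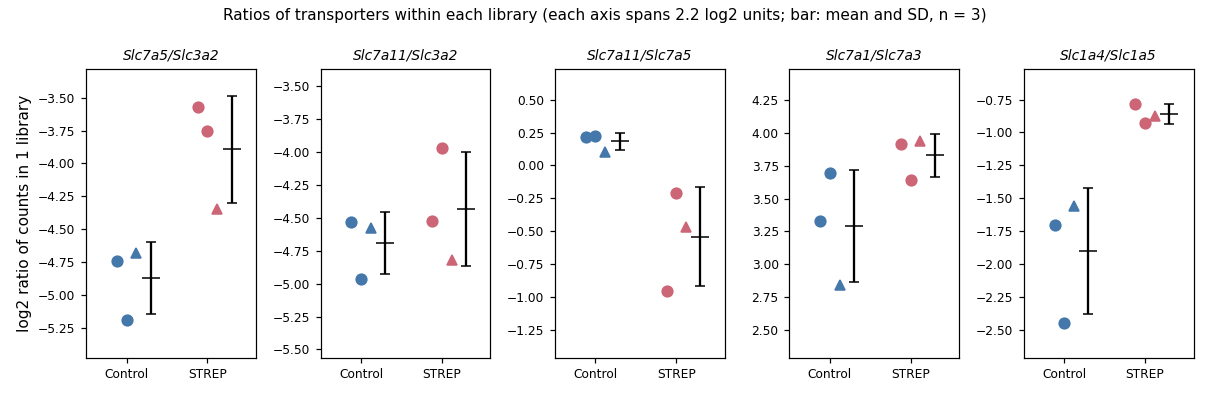
The log2 ratio of counts of 2 transporters in the same library (vertical axes, all of the same height in log2 units) in Control and STREP rats, with males as circles, females as triangles and bars for the mean and SD of 3 libraries. The groups are apart for Slc7a5/Slc3a2, Slc7a11/Slc7a5 and Slc1a4/Slc1a5 and overlap for the other pairs.

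The heavy chain has other partners too, the light chains encoded by Slc7a6, Slc7a7, Slc7a8 and Slc7a10, which were singled out after their values had been seen. Of the 6 light chains, Slc7a5 was the one called. Slc7a8, the light chain of LAT2, a second carrier of neutral amino acids, had means of 13032 and 13100 normalised counts in Control and STREP rats (log2 fold change 0.0073). Log2 fold changes of the 5 other than Slc7a5 ran from -0.63 for Slc7a10 to 0.29 for Slc7a7.

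Slc7a1 (ENSRNOG00000000924) encodes CAT1, the widely expressed carrier of arginine and lysine. It had 1156, 865 and 984 normalised counts in Control and 1495, 1432 and 1542 in STREP rats. The STREP values lay close together and above all Control values. Means were 1002 ± 146 and 1490 ± 55.5 (SD, n = 3), a fold change of 1.49, or a log2 value of 0.57 ± 0.17 (SE) with a DESeq2 adjusted p of 0.0234, just under the threshold for a call. It did not pass the adjusted p-value when Control replicate 2 or 3 or any 1 of the STREP libraries was left out (0.0515 to 0.149), and it was called without Control replicate 1 (0.68, DESeq2 adjusted p = 0.00484). By edgeR its adjusted p was 0.0912. The paper, which used the same thresholds, listed Slc7a1 among the genes upregulated after streptomycin. The reason for the difference was not tested.

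Slc7a3 (ENSRNOG00000004133), the related carrier CAT3, was read by 67 to 187 counts per library. It had 115, 66.3 and 137 normalised counts in Control and 98.5, 114 and 100.2 in STREP rats, with all STREP values inside the Control range. On the log2 scale the change was -0.02 ± 0.40 (DESeq2 adjusted p = 0.995). Its 95% interval, from -0.81 to 0.77, reached beyond 1.5-fold on both sides, so these libraries could not show whether a change of that size was present. The log2 ratio of Slc7a1 to Slc7a3 overlapped between groups (difference 0.54, exact two-sided permutation p = 0.2).

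Slc1a4 (ENSRNOG00000005248) encodes ASCT1, an exchanger of serine, alanine and other small neutral amino acids. It had 1134, 657 and 1061 normalised counts in Control and 1629.6, 1738 and 1613 in STREP rats. The STREP values again lay close together, and Control replicate 2 was well below the other Control animals. Means were 951 ± 257 and 1660.2 ± 68.2 (SD, n = 3), and DESeq2 gave a log2 fold change of 0.80 ± 0.22 (SE) with an adjusted p of 0.00859. The paper also reported Slc1a4 as upregulated by streptomycin. In the other fits its call varied. Without Control replicate 2 the log2 fold change of Slc1a4 was smaller but still called (0.60, DESeq2 adjusted p = 0.0122). It was not called without STREP replicate 1 (DESeq2 adjusted p = 0.0590) or STREP replicate 2 (0.0629), nor by edgeR (adjusted p = 0.0758).

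Slc1a5 (ENSRNOG00000015948) encodes ASCT2, the closest relative of ASCT1 and a glutamine exchanger. It had 3703, 3587 and 3120.1 normalised counts in Control and 2799, 3308 and 2951 in STREP rats, with overlap between the groups. STREP rats differed by -0.20 ± 0.14 on the log2 scale (DESeq2 adjusted p = 0.672), and the 95% interval, from -0.48 to 0.079, did not reach the 1.5-fold threshold. The log2 ratio of Slc1a4 to Slc1a5 was -1.71, -2.45 and -1.56 in Control and -0.78, -0.93 and -0.87 in STREP rats, a difference of 1.04. All STREP ratios were above all Control ratios (two-sided exact permutation p = 0.1, which 3 against 3 cannot go below, and 0.167 adjusted over the 5 ratios). The groups are different animals, so this is a difference between groups that the test could not establish, and a shift within a library was not measured. With 1 library left out, the difference ran from 0.77 (without Control replicate 2) to 1.22 (without Control replicate 3).

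Slc38a2 (ENSRNOG00000006305) encodes SNAT2, which pumps alanine, glutamine and serine into the cell together with sodium and is a well-known adaptive carrier under amino acid shortage. It had 6386, 6122 and 6011 normalised counts in Control and 8508, 7673 and 10964 in STREP rats. The Control animals were nearly alike, and the STREP female was highest. The fold change was 1.47, or a log2 value of 0.55 ± 0.16 (SE) with a DESeq2 adjusted p of 0.0182, under the threshold for a call. The adjusted p exceeded 0.05 without any 1 of the Control libraries or without STREP replicate 1 (0.0522 to 0.131), it was called without STREP replicate 2 (0.65, DESeq2 adjusted p = 0.00193), and by edgeR it was 0.123.

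Slc6a9 (ENSRNOG00000019484) encodes GLYT1, the glycine carrier of glia and many other cells. It was read by 62 to 117 counts per library and had 71.8, 54.4 and 66.2 normalised counts in Control and 82.5, 98.3 and 115 in STREP rats. The groups did not overlap, yet the log2 fold change of 0.62 ± 0.40 did not pass the test (DESeq2 adjusted p = 0.603). The 95% interval, from -0.17 to 1.40, held both no change and a change of more than 1.5-fold.

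**Figure D3:**
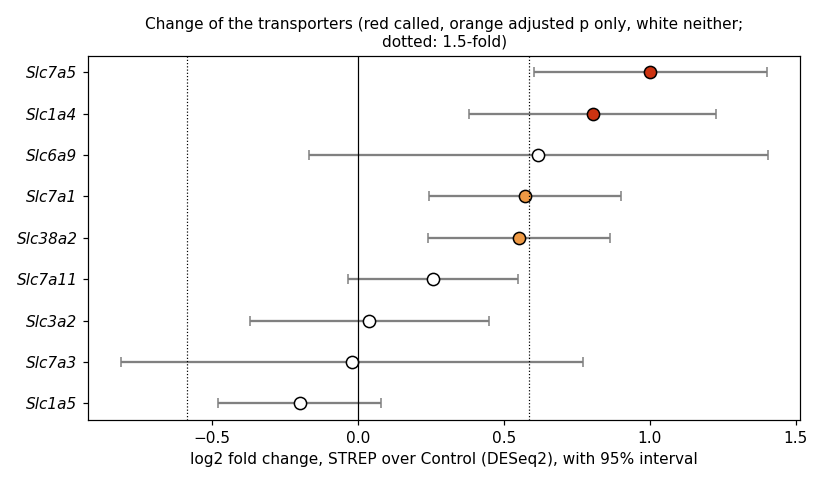
The log2 fold change of STREP over Control (horizontal axis) of each transporter by DESeq2, with 95% intervals as bars, ordered by size, and dotted lines at 1.5-fold. Slc7a5 (1.00) and Slc1a4 (0.80) were called, Slc7a1 (0.57) and Slc38a2 (0.55) passed the adjusted p-value alone, and the intervals of Slc6a9 and Slc7a3 are the widest.

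The spread among animals differed between transporters. In Control rats the SD was 3.12% of the mean for Slc38a2 and 34.0% for Slc7a3. In STREP rats it was 3.29% for Slc7a11, 3.73% for Slc7a1 and 4.11% for Slc1a4, and 29.3% for Slc3a2. Control replicate 2 held the lowest Control value for 6 of the 9 transporters, and for 5482 of the 16250 tested genes. Counts of transporters that passed the adjusted p-value ran from 1 to 3 when a library was left out.

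**Figure D4:**
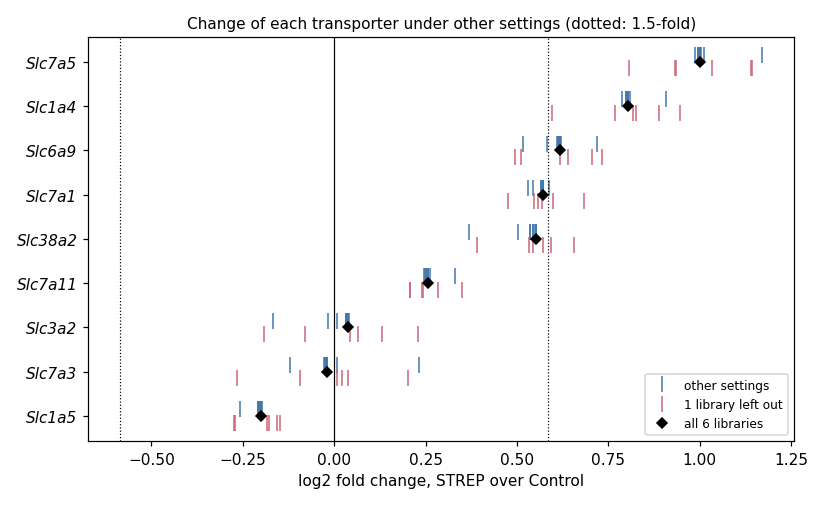
The log2 fold change of each transporter (horizontal axis) with all 6 libraries by DESeq2 (diamonds), under 10 other settings (upper ticks) and with each of the 6 libraries left out (lower ticks). Slc7a5 stays right of the dotted 1.5-fold line throughout, and Slc3a2 and Slc7a3 fall on both sides of 0.

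Males and females were also compared. The difference between sexes in the change under streptomycin was fitted as an interaction in DESeq2, which rests on 1 female per group, and 0 of the 9 transporters had an unadjusted p-value under 0.05 for it. The smallest was 0.0639, for Slc38a2 (DESeq2 adjusted p = 0.948). On the log2(normalised count + 1) scale Slc38a2 was higher by 0.37 in STREP males and by 0.87 in the STREP female, each against Control animals of the same sex. The same differences were 1.13 and 0.69 for Slc7a5, 0.96 and 0.60 for Slc1a4 and 0.55 and 0.65 for Slc7a1, above 0 in both sexes. For Slc3a2 they were -0.17 in males and 0.36 in the female, and for Slc7a3 0.28 and -0.44.

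Other amino acid carriers were read in the same way. Of 45 further carriers of the SLC1, SLC3, SLC6, SLC7, SLC16, SLC36, SLC38 and SLC43 families, 4 had no count, 3 had too few to be tested, and 2 of the 38 tested were called higher and 0 lower, beside 1.87% and 1.37% of all tested genes. Their median log2 fold change was 0.10, and 0.055 over the 26 whose normalised counts averaged 100 or more. Slc36a1, which encodes a carrier that moves small amino acids out of lysosomes or across the membrane together with protons, had 5, 10 and 12 raw counts in Control and 57, 92 and 46 in STREP rats. These were 7.30 and 81.3 normalised counts on average, or 3.51 ± 0.64 (SE) as a log2 fold change with a DESeq2 adjusted p of 6.04e-06, and the groups were far apart. It was called in all 10 other settings and all 6 omissions of 1 library, by edgeR with an adjusted p of 0.0227.

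Slc7a2, the cationic carrier CAT2 and a relative of Slc7a1 and Slc7a3, had 25.8, 45.9 and 75.7 normalised counts in Control and 184, 223 and 95.7 in STREP rats. The STREP female was close to the Control female, whereas the males were further apart. As a log2 fold change this was 1.78 ± 0.50 (SE) with a DESeq2 adjusted p of 0.0148. It was not called by edgeR (adjusted p = 0.132) or without Control replicate 1 or 2 or STREP replicate 1 or 2 (DESeq2 adjusted p from 0.0992 to 0.183). Among relatives of Slc38a2, 0 of 9 tested were called, with a median of -0.14. None of the 4 glutamate carriers tested from the family of Slc1a4 and Slc1a5 was called either.

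**Figure D5:**
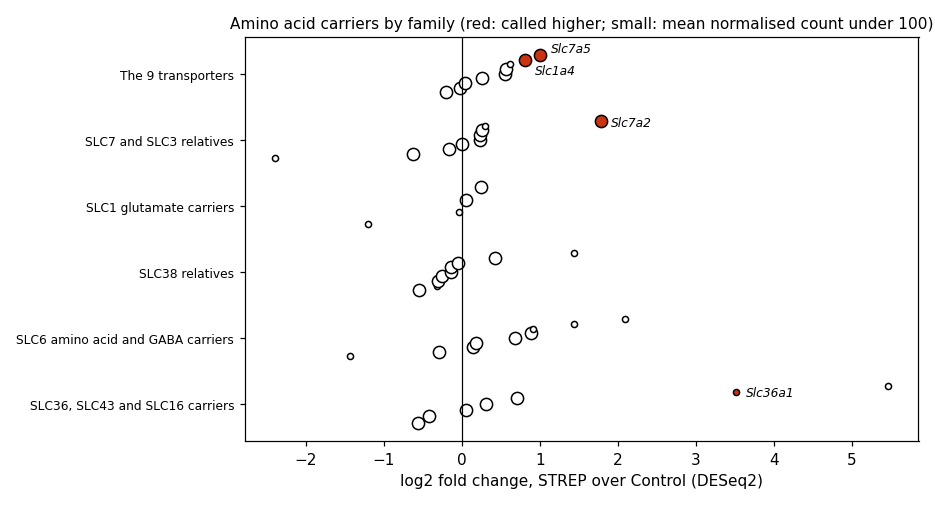
The log2 fold change of STREP over Control by DESeq2 (horizontal axis) for the 9 transporters and 38 other tested amino acid carriers, grouped by family, each point a gene, with called genes in red and small points for genes with a mean normalised count under 100. Slc36a1 (3.51) and Slc7a2 (1.78) are the called genes among the other carriers, and the point furthest right, Slc36a3 (5.46, named after its value was seen), had counts in a single STREP library.

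The regulators of the integrated stress response were read in the same libraries. Of 21 listed genes, 8 were called higher and 0 lower, beside 1.87% and 1.37% of all tested genes. Their median log2 fold change was 0.52. This list was chosen with earlier results of these data known, so these counts are no independent support. None of the 4 kinases that start the response was called, with log2 fold changes from -0.52 to 0.14. Atf4 had 3941, 3860.2 and 5299 normalised counts in Control and 6749, 7198 and 8672 in STREP rats (log2 fold change 0.79), without overlap. Cebpg, a C/EBP partner of ATF4, went from 975 to 3129 normalised counts on average (log2 fold change 1.68 ± 0.17 with its SE, adjusted p = 1.17e-19 by DESeq2), more than any of the 9 transporters. Asns, asparagine synthetase and a classical ATF4 target, had a log2 fold change of 0.74, close to that of Slc1a4. The others called were Chac1 (2.26), a glutathione-degrading enzyme, Cebpb (5.20) and Atf3 (1.56), and, named after their values had been seen, Trib3 (0.98) and Eif4ebp1 (0.64). Cebpb had 7.98, 0.850 and 5.16 normalised counts in Control and 168, 197 and 171 in STREP rats, so its fold change rests on low Control values. By edgeR, Trib3 (adjusted p = 0.0772) and Eif4ebp1 (0.139) did not pass.

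Enzymes that use the amino acids carried by these transporters were read as well. Of 34 tested, 5 were called higher, beside 1.87% of all tested genes, with a median log2 fold change of 0.093. Besides Chac1 and Asns, those higher were Mthfd2 (2.80), of mitochondrial folate metabolism fed by serine and glycine, Aldh18a1 (1.04), the first enzyme of proline synthesis, and Gpt2 (0.80), which makes alanine. By edgeR, Aldh18a1 and Gpt2 did not pass (adjusted p = 0.0960 and 0.0779). Of 5 genes of branched-chain amino acid breakdown and its control, none was called (-0.33 to 0.10). Among them Bcat1 and Bcat2 encode the aminotransferases that act on leucine, a substrate of LAT1.

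Slc7a11 is known to answer to NRF2, the antioxidant transcription factor, as well as to ATF4. Of 10 NRF2-related genes tested, 1 was called higher, beside 1.87% of all tested genes. It was Txnrd1, which encodes thioredoxin reductase (log2 fold change 0.76 ± 0.19 with its SE, adjusted p = 0.00331 by DESeq2). It went from 1375 to 2331 normalised counts on average, and by edgeR its adjusted p was 0.0524. Of the 10 genes, 8 had positive log2 fold changes, and the median was 0.19. In 5 of the 10 every STREP value lay above every Control value, beside 9.12% of all tested genes.

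The profile of the 9 transporters over the 6 libraries was summarised as the median of their log2(normalised count + 1) values relative to the Control mean. It was 0.098, -0.14 and 0.065 in Control and 0.37, 0.31 and 0.63 in STREP rats, highest in the STREP female. Among other genes whose normalised counts averaged 100 or more, the 5 with the smallest root mean square difference from it were Klhdc2 (0.045), Plekhf2 (0.065), Hspa4l (0.066), Ncbp3 (0.068) and Zmym5 (0.070).

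Markers of the cells that the dissection can hold were summed per library as normalised counts. HC markers (9 genes, all with counts) summed to 76414 to 82210 in Control and 67885 to 81154 in STREP rats, and endothelial markers (9 genes) to 15442 to 17456 and 14882 to 18846, with overlap for both. By gene, Myo7a, an HC myosin, was lower in every STREP rat (log2 fold change -0.49, DESeq2 adjusted p = 0.0162) but under the fold change threshold. Of the 9 HC markers, 2 had a positive log2 fold change, and the median was -0.17, beside 0.0069 over all tested genes. The sum of 4 dark cell markers, genes of the cells that secrete endolymph, did not overlap, at 26510.5 to 27018 in Control and 15646 to 20756 in STREP rats, although none of the 4 was called. Most of this sum was Slc12a2, a chloride cotransporter (21841 and 14909 normalised counts on average, log2 fold change -0.55, DESeq2 adjusted p = 0.0035), and Kcne1, Kcnq1 and Bsnd each overlapped between groups. Schwann cell markers (8 genes) summed to 267602 to 364839 and 148949 to 298849, lowest in STREP replicate 2, which also held the lowest Slc3a2 value. By gene, 1 of the 8 had a positive log2 fold change, and the median was -0.41. Supporting cell markers (7 genes) summed to 448473 to 568934 and 526218 to 932845, highest in STREP replicate 3, which held the highest Slc3a2 and Slc38a2 values. Most of this sum was Otog, a gene of the gel-like membrane over the HCs (378410.0 and 535784 on average). By gene, 6 of the 7 supporting cell markers had positive log2 fold changes, with a median of 0.33, but none of the 7 was called. Jag1, Otog, Otogl and Hey2 had all STREP values above all Control values, as did most of the transporters and 9.12% of all tested genes. These single markers were chosen after their values had been seen. Of 73 markers of 11 cell types tested, 3 were called higher and 1 lower, beside 1.87% and 1.37% of all tested genes. Those higher were Gfi1 (1.20), Tubb3 (1.28) and Sox10 (0.95), and the 1 lower was Prx (-0.68). By edgeR, Tubb3 (adjusted p = 0.130) and Prx (0.198) did not pass. The part of cell composition and of depth in the changes of the transporters was not tested, beyond thinning every library to the smallest total, after which Slc7a5 (log2 fold change 1.00) and Slc1a4 (0.80) were still called and Slc7a1 (0.59, DESeq2 adjusted p = 0.0164) was called too.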

How the data were processed

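Vestibular epithelia of 6 rats were sequenced with the SMARTseq2 protocol, in which reverse transcription starts at the poly(A) tail. The authors aligned reads to the rat genome Rnor6.0 with STAR (version 2.5.3a per the labels) and estimated counts per gene with RSEM (version 1.3.0 per the labels). The deposited values were expected counts that were whole in every cell, so rounding changed none. Groups and sexes came from the labels. DESeq2 1.42.0 in R 4.3.3 was run on all 6 libraries, with a Wald test, Benjamini-Hochberg adjustment over 16250 genes kept by independent filtering, and the study's thresholds (adjusted p under 0.05, fold change over 1.5). edgeR 4.0.16 was the alternative test. A count of 0 allows up to 3 counts, or 0.0501 to 0.102 CPM, for counting error only.

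Ratios used counts + 0.5 and an exact two-sided permutation test over samples. The transporters and gene lists were chosen with earlier results of these data known. All 9 transporters were named, and from each list every called gene, up to 6 by smallest adjusted p. Of 216 genes on all lists, 208 were found by symbol, and 1 symbol had more than 1 row. One enzyme on the lists is not reported here. Promoter windows came from RefSeq, build GRCr8, which differs from the build of the counts, and were matched by symbol. Both tests were tried on simulated counts for 32883 genes with 200 changed 2-fold, of which DESeq2 recovered 127 and edgeR 111, with 26.6% and 9.02% of calls false. Alternatives were 10 other settings (test, filter, scaling, sex, threshold and depth) and the omission of each library. P-values of DESeq2 and edgeR weigh the difference between groups against the spread between animals, estimated with information shared across genes. Those of the permutation test come from reassigning the 6 libraries to groups.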

Additional observations from a re-analysis of the deposited data

How the results depend on the processing

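Under the 10 other settings the log2 fold changes of the 9 transporters kept direction and call in 80 values. The rest were 4 that changed sign, 5 that lost the call and 1 that gained it. With 1 library left out, 44 kept both, 6 changed sign, 2 lost the call and 2 gained it. Slc1a4 was called in 6 of the 10 settings and 4 of the 6 omissions. Genes called, 527 in all, were 264 by edgeR with a count filter, 295 without it, 309 with library totals as size factors and 82 with the fold change threshold inside the test. Transporters called higher, 2 with all libraries by DESeq2, were 1, 1, 1 and 0 under these 4 settings. Those with an adjusted p under 0.05, a count added after seeing the data, were 4, and 1, 1, 1 and 0 under the same settings and 2 in males alone. Other carriers called were 2, and 1 by both edgeR fits and with the threshold inside the test. The cause was not tested. The log2 fold change of Slc3a2 was negative with library totals (-0.018), in males alone (-0.17), without Control replicate 1 (-0.080) and without STREP replicate 3 (-0.19). That of Slc7a3 was positive with sex as a covariate (0.0067), in males alone (0.23), and without Control replicate 1 (0.037), Control replicate 3 (0.20), STREP replicate 1 (0.021) or STREP replicate 3 (0.0089). Leaving out 1 library gave 424 to 517 genes called, 1 to 3 transporters called higher (1 without STREP replicate 1), 1 to 3 with an adjusted p under 0.05 (1 without STREP replicate 1, and 2 without Control replicate 2 or 3 or STREP replicate 2) and 1 to 2 other carriers called (1 without Control replicate 2 or STREP replicate 2). Over these omissions the log2 fold change of Slc3a2 ran from -0.19 to 0.23 and that of Slc7a3 from -0.27 to 0.20. No ratio changed sign. No paired analysis was made because the groups are different animals and the labels name no pairs between them. Slc7a3 and Slc6a9, the transporters with the fewest counts, had the widest intervals, and the parts of counting error and of spread between animals in them were not separated.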

Other observations

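Genes of the pathway by which mTORC1, the growth-promoting kinase, senses amino acids inside the cell were read beside the transporters. Of 23 tested, 1 was called higher and 0 lower, beside 1.87% and 1.37% of all tested genes. Their median log2 fold change was -0.035. The one called was Rragd, a Rag GTPase at the lysosome (1.03, DESeq2 adjusted p = 0.0294). By edgeR it did not pass (adjusted p = 0.139).

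Marker sums of the remaining cell types overlapped between groups in every case. In normalised counts they were 4365 to 4939 in Control and 4214 to 4498 in STREP rats for neurons, and 4733 to 6266 and 5799.6 to 7122 for macrophages. Pericyte and smooth muscle markers summed to 3238 to 4619 and 2896 to 5038, fibroblast markers to 15565 to 21226 and 14756 to 19485, melanocyte markers to 27264 to 28268 and 27915 to 39978, and red blood cell markers to 5759 to 19619 and 8192 to 10925. Most of the melanocyte sum was Pmel (log2 fold change 0.29). By gene, 1 of the 5 melanocyte markers had a positive log2 fold change, the median was -0.96, and none was called. For Mlana (-0.96) all STREP values lay below all Control values.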
